A study of Mus musculus with 6 samples.

Results

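The signal of 6 circular RNAs of 3 chromatin genes was followed through the neutrophils of diabetic and non-diabetic mice. They are all the circRNAs with the host gene Dot1l (1 circRNA), Chd2 (2) or Hist1h1c (3) in the study's lists of circRNAs that differed between db and non-db neutrophils. The lists hold 453 circRNAs, 206 higher and 247 lower in db, and each array carried 14236 circRNA probes. All 6 are in the lower list. They were thus chosen by the fold between the same 6 pools, so that they were lower in db is no finding, and their differences are given below as a description with no test. The files pair probes with no names, so each circRNA was tied to its probe by its listed fold within 0.001%, and each of the 6 matched 1 probe.

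Both groups were male BKS.Cg-Dock7m +/+ Leprdb/J mice at 8 weeks of age. The db mice were Lepr db/db, which lack a working leptin receptor, and the non-db mice were Lepr db/+, so the controls carried 1 copy of the same allele. Neutrophils were taken from the marrow of femurs and tibiae with anti-Ly-6G beads, and the marrow of 3 mice was pooled before isolation. There were 3 non-db pools (1, 2 and 3) and 3 db pools (4, 5 and 6) with 1 array each. Mice are averaged within a pool, so the spread between pools does not give the spread between single mice. RNase R, an enzyme that digests linear RNA and spares circles, was applied before Cy3 labelling.

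Circular RNAs form when the end of an exon is joined back to the start of the same or an earlier exon, which leaves a closed loop without free ends. Some bind microRNAs, the short RNAs that pair with messenger RNA through a seed near their 5′ end. Dot1l methylates a lysine on the globular core of histone H3 and is tied to transcribed genes and to blood cell formation. Chd2 is an ATP-driven remodeller that moves nucleosomes at active genes. Hist1h1c, now named H1f2, encodes a linker histone that binds the DNA between nucleosomes and compacts chromatin, as neutrophil nuclei do strongly when they mature.

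The study's site predictions pair mmu_circRNA_22278 of Dot1l and mmu_circRNA_41665 of Chd2 with microRNAs, whose sequences are shown because the sets paired with the circles of the 2 genes differ in base content. MicroRNAs were not measured on these arrays. The sequences are from RefSeq (GRCm38.p6), with the seed, bases 2 to 8, in capitals. For mmu_circRNA_22278, 4 of the 5 were found, and mmu-miR-7682-3p is named only.
mmu-miR-6931-5p: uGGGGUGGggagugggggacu
mmu-miR-7048-5p: cGGGGCUGagaggugaggaagc
mmu-miR-92a-2-5p: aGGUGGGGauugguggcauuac
mmu-miR-7036b-5p: aCGCGGGGuucucuguggaagc

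These lie, in the same order, at chr11:102999896-102999916 (minus strand), chr7:25217699-25217720 (minus), chrX:52741892-52741913 (minus) and chr5:34574151-34574172 (plus). For mmu_circRNA_41665, all 5 were found.
mmu-miR-6932-3p: uCUGUUCUgcuuccucugcag
mmu-miR-6946-3p: uUUCUUCUcuucccuuucag
mmu-miR-6908-3p: aCACUCUCccuugugcuggcag
mmu-miR-6961-3p: uCCUCUUUcuuccuggcucuag
mmu-miR-6957-3p: uGGAUCUCuuguuuucucuucc

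Their positions are chr11:107637759-107637779 (plus), chr14:20690684-20690703 (plus), chr10:78445095-78445116 (minus), chr15:100649163-100649184 (minus) and chr15:80646113-80646134 (plus). The 9 microRNAs had 9 different seeds, so no microRNA of either set shared a seed with another. The set of the Dot1l circle was rich in G, which made up 40.9% to 66.7% of its bases. In the set of the Chd2 circle, G made up 5.0% to 22.7%, and pyrimidines made up 63.6% to 90.0%, against 22.7% to 45.5% in the Dot1l set. All microRNAs shown for the Dot1l circle are 5p arms of their precursors, and all shown for the Chd2 circle are 3p arms. A difference between the circles thus cannot be told apart from one between arms, and base content over all microRNAs was not analysed.

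The deposited values are log2 signal, normalized between arrays. Scanner flags were read from 5 arrays, since the scanner file of pool 1 holds 2422 of 15712 spots. A probe was kept when its spot was flagged as well above background on 3 or more of them, which left 12722 of 14236. The share of probes with this flag was lowest in pool 5, at 80.7%, and highest in pool 3, at 91.4%. Pools 1 and 4 were scanned in 1 session and pools 2, 3, 5 and 6 in another. The neutrophil identity of the pools could not be checked on these arrays, since 0 of 24 marker genes of neutrophils, T cells, B cells, macrophages and erythroid cells were among the 44 named linear control probes. In RNA of pooled cells, fewer cells of a type and less RNA per cell cannot be told apart.

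All 6 circRNAs passed the filter, and their 31 readable spots were all well above background, with 0 saturated and 0 marked as outliers. A lower signal in db of more than 1.5-fold was seen for 6 of 6, against 1.93% of the probes kept, and nothing is read from this count because the choice of members fixed it. The threshold was passed most narrowly among listed circRNAs by mmu_circRNA_37324 of Usp24, with a log2 difference of -0.58499, and the nearest probe outside it, which has no name here, had -0.58437. Every db pool lay below every non-db pool for 1 of 6, against 2.68% of the probes kept and 12.1% of the 247 circRNAs listed lower. Counts set beside the probes kept are descriptions throughout, because a choice by fold favours circRNAs with extreme pools, and for most of them the share among the listed circRNAs is given too.

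Dot1l has 1 listed circle, mmu_circRNA_22278, an exonic circRNA on chromosome 10. Its log2 signal was 8.38, 9.59 and 10.20 in non-db pools 1, 2 and 3, and 7.67, 8.85 and 9.61 in db pools 4, 5 and 6. The groups overlapped widely, since db pool 6 stood above non-db pools 1 and 2, and only pool 4 was below every non-db pool. The means were 9.39 ± 0.92 (SD, n = 3) in non-db and 8.71 ± 0.98 (SD, n = 3) in db. The difference, db minus non-db, was -0.68, a signal 1.60-fold lower, which is smaller than the pooled SD within groups of 0.95. Taken in number order, pool 4 minus 1, 5 minus 2 and 6 minus 3, the differences were -0.71, -0.74 and -0.58, with an SD of 0.08. This order gives the p-values of the study's lists, but the labels do not tie these pools to each other. No other of the 6 circRNAs had a db pool above the non-db mean, and pool 6 was above it here by 0.23.

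The 2 lowest pools of the Dot1l circle, 4 and 1, were the 2 scanned in the first session, an arrangement found in 9.2% of the probes kept. The first session holds only these pools, so session and pool cannot be told apart. The pools of the second session were on average 1.54 log2 units higher, adjusted for group. Within each session the db pools were lower by nearly the same amount, with a difference of -0.71 in the first and -0.66 in the second. With the session as a block the residual SD was 0.40, below the difference of -0.68 in size. These values are parts of the difference that chose the circle, so they are a description only. For each of the other circRNAs this residual SD was above the pooled SD within groups, at 0.45 to 0.95. For mmu_circRNA_41662 it was 0.90, above the difference of -0.72 in size. Leaving out single pools moved the difference of the Dot1l circle between -1.18 (without pool 1) and -0.16 (without pool 4). It was -0.27 without pool 3 and -1.13 without pool 6. On scanner values of pools 2 to 6, it ranged from -1.32 to -1.10. These also lack pool 1, so they are to be set beside the -1.18 of the deposited values without pool 1.

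The processed scanner signal, before any scaling between arrays, kept the same order for the Dot1l circle. It was 637 in pool 2 and 1059 in pool 3, against 167, 500 and 855 in pools 4, 5 and 6. The spot was 11.3 to 65.9 times as bright as its local background, so the circle was well measured on each of these arrays.

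Both listed circles of Chd2 are exonic and lie on chromosome 7. For mmu_circRNA_41662, the log2 signal was 8.45, 8.11 and 9.95 in non-db pools 1, 2 and 3, and 8.15, 7.55 and 8.65 in db pools 4, 5 and 6. Pool 3 stood far above the rest, and the other pools of both groups were interleaved, with only pool 5 below every non-db pool. The means were 8.84 ± 0.98 (SD, n = 3) and 8.12 ± 0.55 (SD, n = 3), a difference of -0.72 or 1.65-fold lower in db, which is smaller than the pooled SD of 0.79. Without pool 3 the difference was -0.16, without pool 5 it was -0.44, and without pool 2 it was -1.08. The difference of the group medians was -0.30. In number order the differences were -0.30, -0.56 and -1.29, with an SD of 0.51.

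For mmu_circRNA_41665, the log2 signal was 5.89, 5.67 and 6.58 in non-db pools 1, 2 and 3, and 5.19, 5.08 and 5.70 in db pools 4, 5 and 6. Pools 4 and 5 were below every non-db pool, and pool 6 kept the groups from separating by standing just above pool 2. The means were 6.04 ± 0.47 (SD, n = 3) and 5.32 ± 0.33 (SD, n = 3), and the difference of -0.72 was larger than the pooled SD of 0.41. Its fold, 1.65, was that of the other Chd2 circle, with a smaller spread between pools. In number order the differences were -0.70, -0.58 and -0.88, with an SD of 0.15. Without pool 3 the difference was -0.45.

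The spot of mmu_circRNA_41665 was dim, at 2.24 to 6.26 times its local background, and the scanner's error was 10.2% to 19.0% of its signal. The processed signal was 24.3 in pool 2 and 69.5 in pool 3, against 12.7, 12.0 and 36.1 in pools 4, 5 and 6. Its difference depended on how the dim signal was treated. On the processed signal of pools 2 to 6, from which the scanner software had already taken background, it was -1.44 to -1.26. On the median spot signal of the same pools, after normexp background correction with an offset of 50, it was -0.49. What the offset did to so dim a signal was not tested. For the other 5 circRNAs the scanner's error was close to 10% of the signal throughout. The spot of mmu_circRNA_41662 was 11.2 to 45.0 times its background.

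The 3 listed circles of Hist1h1c lie on chromosome 13 and are classed as sense overlapping, which means that they overlap the gene on its own strand without being classed as exonic or intronic. The RefSeq gene is short, at 725 bases, against 40361 for Dot1l and 115095 for Chd2, and like other genes for replication-linked histones it has no introns. How far the 3 circles share sequence was not analysed here. They are therefore 3 readings of 1 small locus and not 3 separate genes.

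For mmu_circRNA_012164, the log2 signal was 10.49, 10.02 and 11.93 in non-db pools 1, 2 and 3, and 9.53, 10.20 and 9.11 in db pools 4, 5 and 6. Pools 4 and 6 were below every non-db pool, while pool 5 stood above pool 2. The means were 10.81 ± 0.99 (SD, n = 3) and 9.61 ± 0.55 (SD, n = 3), a difference of -1.20 or 2.30-fold lower in db.

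For mmu_circRNA_007217, the values were 11.05, 10.28 and 12.22 in pools 1, 2 and 3, and 10.11, 10.57 and 9.31 in pools 4, 5 and 6. The pools stood in the same order as for mmu_circRNA_012164, with pool 5 again above pool 2. The means were 11.18 ± 0.98 (SD, n = 3) and 9.99 ± 0.64 (SD, n = 3), a difference of -1.19 or 2.28-fold.

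For mmu_circRNA_009340, the values were 9.45, 9.31 and 10.66 in pools 1, 2 and 3, and 8.51, 9.28 and 8.22 in pools 4, 5 and 6. This was the single circRNA of the 6 whose groups did not overlap, and the space between pool 5 and pool 2 was 0.033 log2 units. In the processed scanner signal, before scaling between arrays, pool 5 (690) stood above pool 2 (528), so the groups overlapped there. The means of the log2 signal were 9.81 ± 0.74 (SD, n = 3) and 8.67 ± 0.55 (SD, n = 3), a difference of -1.14 or 2.20-fold. For each of the 3 Hist1h1c circles the difference was larger than the pooled SD, which was 0.80, 0.83 and 0.65 in the order above.

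The Hist1h1c circles had the larger differences of the 6 and kept them past 1.5-fold without any 1 pool. Pool 3 decided more of their size than any other pool. Without it the differences were -0.64, -0.67 and -0.71, in the same order. In number order their differences were uneven, with an SD of 1.51, 1.62 and 1.22, and the middle one, pool 5 minus pool 2, was 0.18, 0.29 and -0.03. Their spots were 21.7 to 188 times as bright as the local background.

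**Figure D1:**
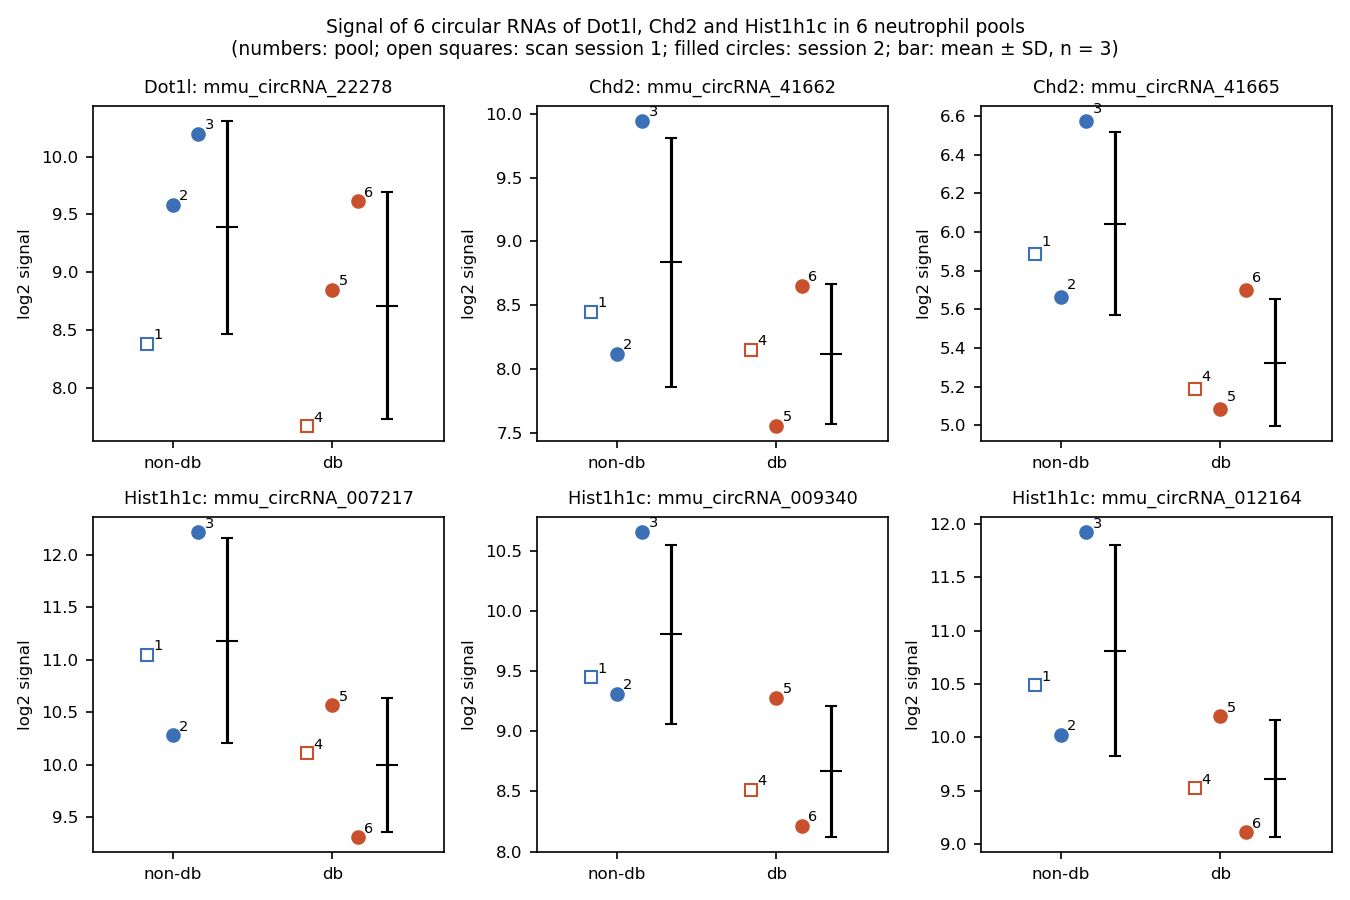
Log2 signal of the 6 circRNAs in each pool, with non-db pools in blue, db pools in orange, the pool number beside each point, open squares for the first scan session and filled circles for the second. Bars are the mean ± SD of 3 pools, and each panel has its own log2 axis. Pool 3 is the highest pool in 6 of 6 panels, and the lowest is pool 4 for Dot1l, pool 5 for both Chd2 circles and pool 6 for the Hist1h1c circles.

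Which db pool was lowest in the deposited values differed between the host genes. As the plot of signal by pool shows, the lowest of all pools was pool 4 for the Dot1l circle, pool 5 for both Chd2 circles and pool 6 for the 3 Hist1h1c circles. Before scaling between arrays, the processed signal of mmu_circRNA_009340 was lower in pool 4 (310) than in pool 6 (331). For mmu_circRNA_41665, pools 4 and 5 were close, at 12.7 and 12.0, with scanner errors of 13.3% and 19.0%. Over the probes kept, pool 4 was the lowest for 28.4%, pool 5 for 9.87% and pool 6 for 7.48%. Over the circRNAs listed lower, these shares were 72.1%, 11.3% and 12.1%. Pool 4 was below every non-db pool for 5 of the 6, pool 5 for 3 and pool 6 for 3. The shares of all probes or of the listed circRNAs with such a pool were not computed, so nothing is read from these counts. On the non-db side the circles were alike, since pool 3 was the highest of all 6 pools for 6 of 6, which come from 3 loci. The share was 21.6% over the probes kept and 38.9% over the circRNAs listed lower. The share of probes well above background was 91.36% in pool 3, the highest, and 91.33% in pool 6. Pool 3 also had the lowest rank correlation between deposited and scanner values, at 0.992. The part of pool 3 in the differences was not tested beyond leaving it out, which left 3 of 6 past 1.5-fold, all of them of Hist1h1c.

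**Figure D2:**
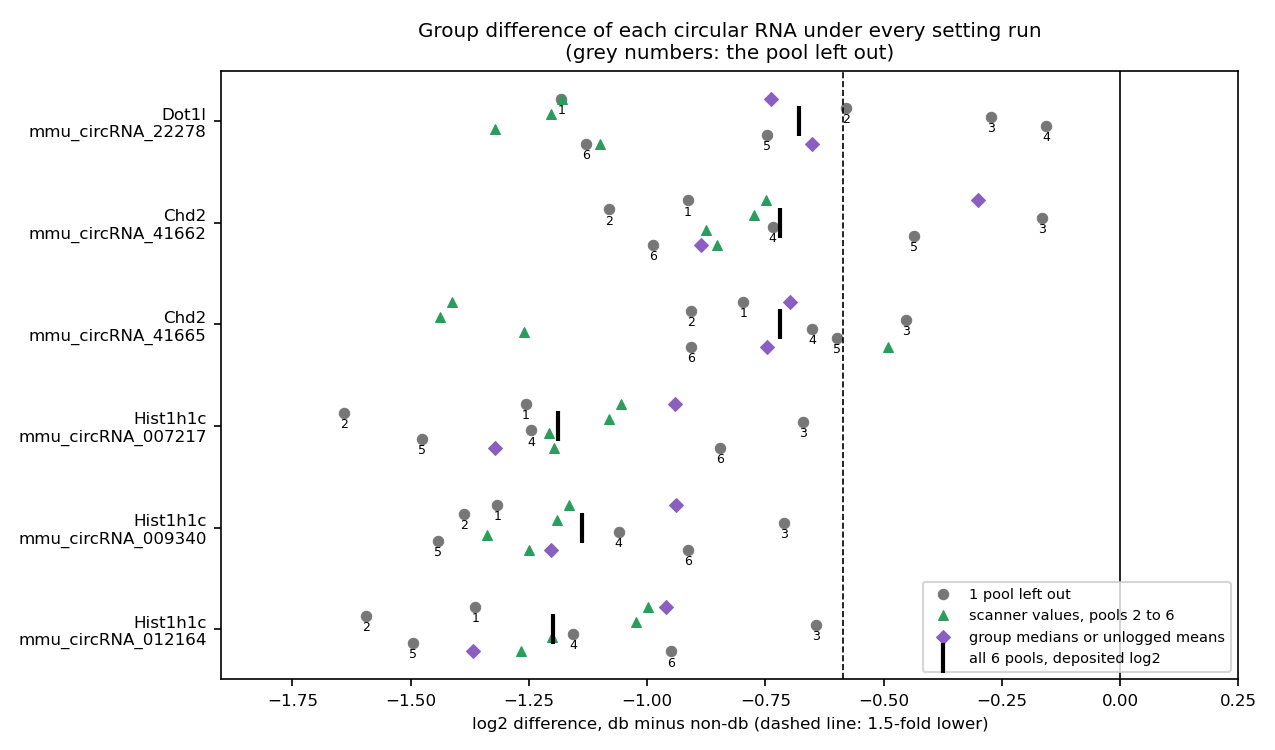
Log2 difference, db minus non-db, of each circRNA under the settings that were run, with black bars for the deposited values of 6 pools, grey points for 1 pool left out (numbered), green triangles for scanner values of pools 2 to 6 and purple diamonds for group medians or unlogged means. The session block, which could not change a difference, is not drawn. The dashed line marks 1.5-fold lower. Every point is below 0, the Dot1l circle comes nearest to 0 without pool 4 (-0.16) and the other 5 come nearest among the leave-one-out values without pool 3.

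Within the scan sessions, the db side was lower in both for 6 of 6 circRNAs, which held for 24.4% of the probes kept and 95.5% of the circRNAs listed lower. It was more than 1.5-fold lower in both sessions for 5 of 6, against 0.322% of the probes kept and 17.0% of those listed lower. The session values are parts of the difference that chose the circRNAs, so these counts are largely set by the choice. The exception was mmu_circRNA_41662, with a difference of -0.30 in the first session and -0.93 in the second. The first session is 1 pool against 1, so its value has no spread of its own. For the Hist1h1c circles the differences were -0.94 to -0.96 in the first session and -1.24 to -1.32 in the second, and for mmu_circRNA_41665 they were -0.70 and -0.73. The median difference of the 6 circRNAs over all pools was -0.93, and that of all probes kept was 0.01.

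**Figure D3:**
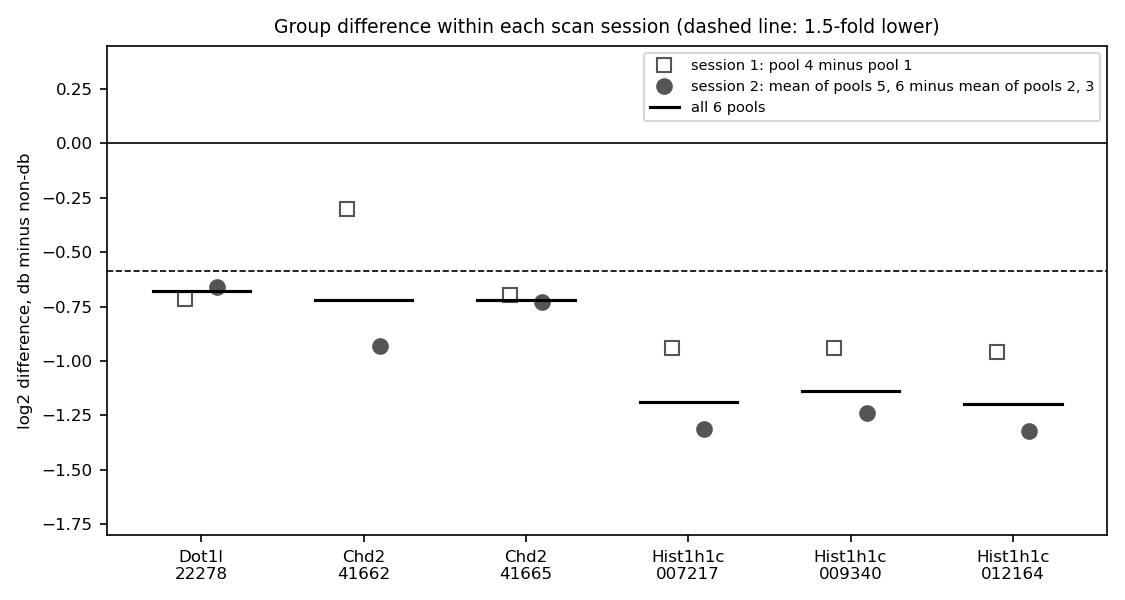
Log2 difference, db minus non-db, of each circRNA within each scan session, with open squares for pool 4 minus pool 1, filled circles for the mean of pools 5 and 6 minus the mean of pools 2 and 3, black bars for all 6 pools and a dashed line at 1.5-fold lower. All 12 values are below 0, and the first-session value of mmu_circRNA_41662 (-0.30) is the one above the dashed line.

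Circles of 1 gene followed each other over the pools more closely than circles of different genes. Pearson's r over the 6 pools was 0.965 to 0.988 for the 3 pairs of Hist1h1c circles and 0.933 for the Chd2 pair. For the 11 pairs from different host genes r was 0.294 to 0.734. The pools share arrays, scan sessions and the group difference that chose the circles, so r is given as a description.

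With each group's mean taken away, r was 0.940 to 0.983 for the Hist1h1c pairs, 0.971 for the Chd2 pair and 0.0435 to 0.616 for pairs of different genes. Without pool 3, the Hist1h1c pairs kept an r of 0.895 to 0.973 and the Chd2 pair of 0.789, while pairs of different genes ranged from -0.464 to 0.399. The high value of pool 3 was thus common to all 3 genes, and the likeness within a gene was there without it.

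Circles of the same gene were not always the nearest of the 12721 other probes kept. The 2 other Hist1h1c circles ranked 1 and 15 for mmu_circRNA_009340, 4 and 6 for mmu_circRNA_012164, and 2 and 18 for mmu_circRNA_007217. The other Chd2 circle ranked 163 for mmu_circRNA_41662 and 92 for mmu_circRNA_41665. Probes with an r of 0.95 or more numbered 27, 38 and 31 for these Hist1h1c circles, 100 and 48 for the Chd2 circles and 73 for the Dot1l circle.

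Among the listed circRNAs alone, the nearest to each Hist1h1c circle was another Hist1h1c circle. A circle of Sp3, a zinc finger transcription factor, was among the 3 nearest listed to each of them, with an r of 0.962 to 0.979, and for mmu_circRNA_007217 it and a circle of Aff2 (0.969) stood before mmu_circRNA_009340. The listed circRNAs nearest to mmu_circRNA_41662 were circles of Cyfip2 (0.995) and Malat1 (0.995 and 0.991). Those nearest to mmu_circRNA_41665 were listed circles of Syndig1 (0.970), Copg2 (0.962) and Tnpo1 (0.960), which ranked 13, 29 and 32 among the probes kept. For the Dot1l circle the nearest listed were circles of Atxn1 (0.973), Mnat1 (0.962) and Shprh (0.951), with ranks of 20, 37 and 69.

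For the locus of the 3 Hist1h1c circles, the 250 bases upstream of the RefSeq start of H1f2 are shown, at chr13:23738557-23738806 on the plus strand of GRCm38.p6. Whether they bear on the likeness of the circles was not tested. Promoters of linker histone genes are known for an element with the letters AAACACA, for a second one with CCAAT and for a TATA box, searched here as TATATA. Capitals mark the matches.
H1f2 promoter: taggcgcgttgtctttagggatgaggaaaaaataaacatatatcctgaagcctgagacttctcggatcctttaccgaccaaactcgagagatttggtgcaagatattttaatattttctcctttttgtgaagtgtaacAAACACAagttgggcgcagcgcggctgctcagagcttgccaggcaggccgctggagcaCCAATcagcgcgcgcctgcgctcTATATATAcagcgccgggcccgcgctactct

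Counted from the start site, the match to AAACACA began at -112 and that to CCAAT at -54, and 2 overlapping copies of TATATA followed. Over both strands of 32817 promoter windows of this length, CCAAT was found in 33.8% of windows, AAACACA in 6.25% of windows and TATATA in 5.25% of windows. The Dot1l window, chr10:80754953-80755202 on the plus strand, held 0 matches to any of the 3, with 78.4% G and C and 44 CG pairs against 50.4% and 17 for H1f2. Chd2 was not in the promoter table. These are matches of letters, and the arrays measured no binding.

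To place the 6 among chromatin genes, a list of 160 genes in 7 families was searched in the study's lists. It found 19 host genes with 24 circRNAs, of which 17 were lower and 7 higher in db, where 54.5% of all listed circRNAs were lower. Besides the 6, there were 18 circRNAs of 16 genes, 11 lower and 7 higher. In 0 of these 18 were the groups apart, which held for 12.1% of all circRNAs listed lower and 9.71% of those listed higher. Probes outside the lists have no host gene here, so the family counts below cannot be set against the share of each family on the array.

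The directions by family are counts of circRNAs already chosen by fold, and were not tested. Among CHD remodellers, 3 of 10 genes had listed circles, all lower, with Chd7 at -0.67 and Chd5 at -0.69 beside the Chd2 circles. Among lysine methyltransferases and Polycomb members, 4 of 39 genes had 6 listed circles, all lower. They included 3 circles of Ezh2, the methyltransferase of the Polycomb repressive complex, at -0.86 to -0.87, Jarid2, a cofactor of that complex, at -0.72, and Prdm2 at -0.68 beside the Dot1l circle. Linker histones gave 1 of 9 genes, Hist1h1c.

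Of the histone demethylases, 3 of 21 genes were listed, with all 3 circles higher in db. Kdm3a, which removes methyl groups from a lysine of histone H3, was at 1.57, its relative Jmjd1c at 1.04 and Kdm2b at 0.87. The remaining families had circles on both sides. The DNA demethylation enzyme Tet1 was at 1.04, and the maintenance DNA methyltransferase Dnmt1 and the methyl-DNA binder Mbd2 were at -0.59 and -0.74. The chaperone Hira (1.19) and the remodeller subunit Ino80c (0.90) were higher and the remodeller Atrx (-0.66) lower. Of the deacetylase complex members, Sin3b was at 0.61 and Arid4a at -0.68.

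**Figure D4:**
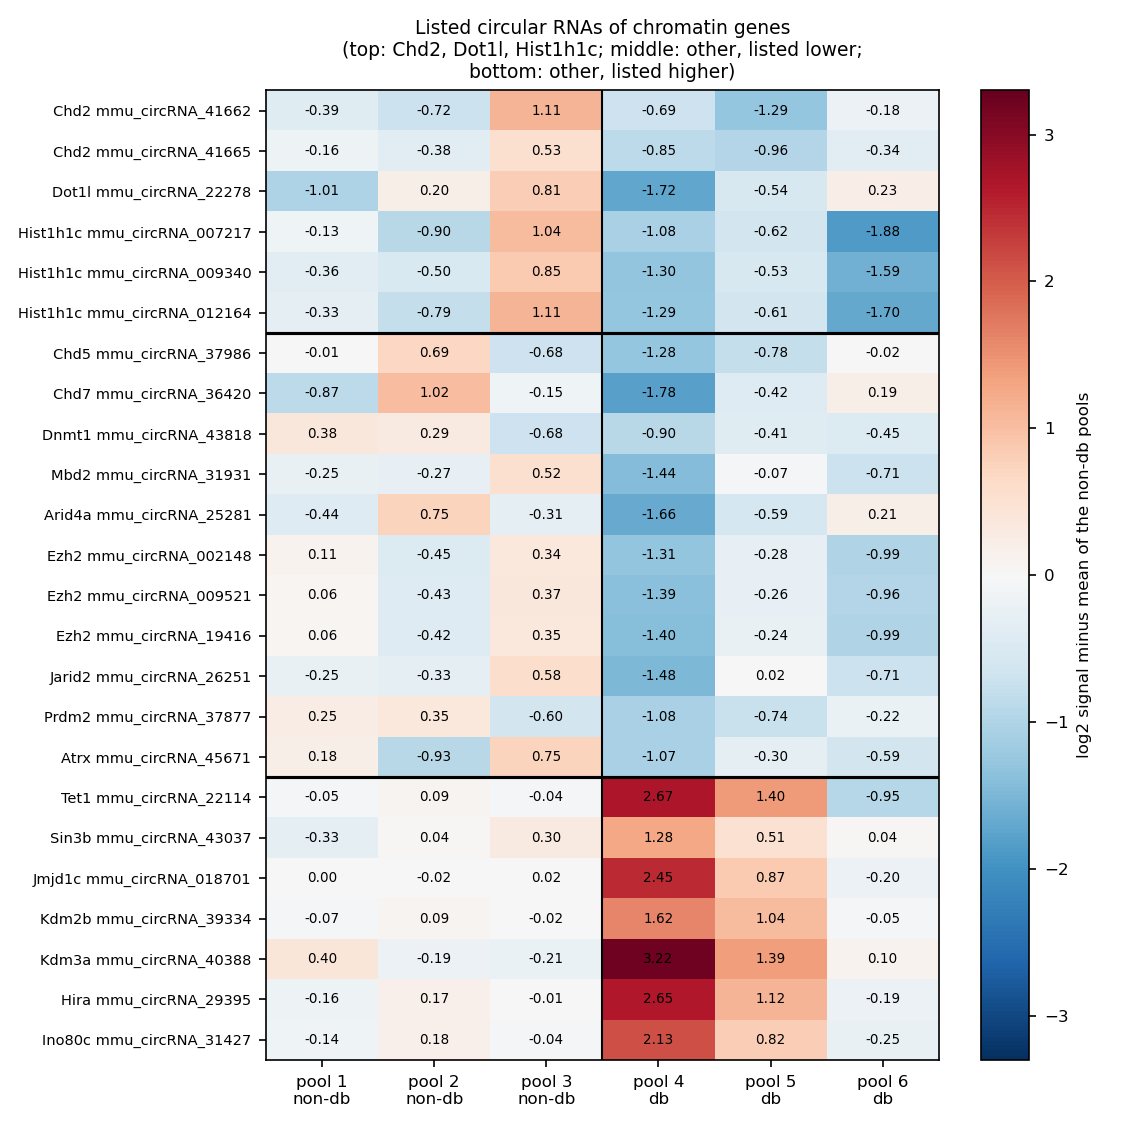
Log2 signal minus the mean of the non-db pools, by pool (columns), for the 24 listed circRNAs of chromatin genes (rows), blue for lower and red for higher, in blocks for the 6 circRNAs of Chd2, Dot1l and Hist1h1c, the 11 others listed lower and the 7 listed higher. Pool 4 is the lowest pool in each row of the middle block and the highest in each row of the bottom block, while pool 6 is the lowest for the Hist1h1c rows.

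Pool 4 was the extreme db pool in these other chromatin circles, as in the Dot1l circle but not in those of Chd2 and Hist1h1c. As the map of signal by pool shows, pool 4 was the lowest pool for 11 of the 11 lower ones and the highest for 7 of the 7 higher ones, against 28.4% and 29.4% of the probes kept. Among all listed circRNAs these shares were 72.1% of the lower and 93.2% of the higher ones, so pool 4 stood out in the lists as a whole. Of the 6 circRNAs of Dot1l, Chd2 and Hist1h1c, pool 4 was the lowest for 1, the Dot1l circle. Without pool 4, the number past 1.5-fold lower went from 11 to 3, all of Ezh2 (-0.61 to -0.63), and the number past 1.5-fold higher from 7 to 1, Kdm3a (0.75). The same omission left 5 of the 6 circRNAs past 1.5-fold, with Dot1l the one lost. Without pool 3, 8 of the 11 and 7 of the 7 were past 1.5-fold, and pool 3 was the highest pool for 6 of these 11, as for 96 of the 247 listed lower.

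The demethylase circles showed the weight of pool 4. Their median lay 2.45 above the non-db mean in pool 4, 1.04 above it in pool 5 and at -0.05 in pool 6. For the Hist1h1c circles the medians were -1.29, -0.61 and -1.70 in pools 4, 5 and 6. For methyltransferases and Polycomb members they were -1.39, -0.27 and -0.84.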

How the data were processed

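circRNA signal was measured on 1-colour Arraystar mouse circRNA arrays, 1 per pool. The authors deposited scanner files with spot intensity and flags from Agilent Feature Extraction 11.0.1.1, without scaling between arrays. The submitters' processing notes also name limma. A second deposited table gives log2 signal after the authors' normalization, whose method is not given in the sources used here. Its columns, once sorted, differed by a median SD of 0.00728. Such scaling leaves no change that all circRNAs share. The array design names mm9, but no source used here gives the build of the circRNA annotation, and circRNA coordinates are not printed.

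The deposited log2 values of all 6 pools were used, because the scanner file of pool 1 is incomplete. Probes were kept where well above background on at least 3 of 5 complete arrays. Differences are group means of log2 values, db minus non-db, with SD, and the fold threshold is 1.5. The authors' comparison columns (fold and p of the supplementary lists) were used only to tie names to probes and to give the listed direction. Of 453 listed circRNAs 449 matched 1 probe and 4 matched 2. All 453 listed p-values equalled, within 0.1%, a paired t-test with the pools taken in number order (1 with 4, 2 with 5, 3 with 6), and this p told double matches apart. The labels state no pairing. The linking was tested on simulated data. The circRNAs named are the 6, the 3 listed circRNAs most like each by Pearson's r, and all listed circRNAs of the chromatin gene list. The members and lists were chosen with earlier results of these data known. Pools were grouped by their titles and descriptions. The number of arrays limits the precision.

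Alternatives on scanner values used pools 2 to 6, with 75th percentile scaling over all or detected probes, quantile normalization, or normexp (offset 50, on the median spot signal) with quantile normalization. Others were each pool left out, group medians, means of unlogged values, the scan session as a block and other filters. R 4.3.3 with limma 3.58.1 and Python 3.11.15 with pandas 2.3.3, numpy 2.4.6 and matplotlib 3.10.9 were used.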

Additional observations from a re-analysis of the deposited data

How the results depend on the processing

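Each of the 6 circRNAs stayed lower in db under all 14 settings run. The settings reuse the pools whose fold chose the circRNAs, so this was largely set by the choice. The differences without 1 pool ranged from -1.18 to -0.16 for mmu_circRNA_22278, -1.08 to -0.16 for mmu_circRNA_41662, -0.91 to -0.45 for mmu_circRNA_41665, -1.64 to -0.67 for mmu_circRNA_007217, -1.44 to -0.71 for mmu_circRNA_009340 and -1.59 to -0.64 for mmu_circRNA_012164. For mmu_circRNA_41665, scanner values of pools 2 to 6 gave -1.41 and -1.44 with 75th percentile scaling over all and over detected probes and -1.26 with quantile normalization. The spot is dim, and the cause was not tested. These scalings moved the median of all probes kept to between -0.09 and 0.03. The number past 1.5-fold lower was 3 to 6 with 1 pool left out, the 3 without pool 3. The number with separate groups was 1 to 4 with 1 pool left out, at 4 without pool 2, 3 without pool 5 and 2 without pool 6, and was 2 with scaling over detected probes and with quantile normalization, in each case with fewer pools to overlap. For the other chromatin circles, 3 to 11 stayed past 1.5-fold lower and 1 to 7 past 1.5-fold higher with pool 3, 4 or 6 left out, alternatives chosen after seeing the data. With 1 pool left out, r ranged from -0.42 to 0.658 for mmu_circRNA_22278 with mmu_circRNA_007217, from -0.0060 to 0.860 with mmu_circRNA_009340 and from -0.19 to 0.768 with mmu_circRNA_012164. For mmu_circRNA_41662 with the same 3 it ranged from -0.40 to 0.890, from -0.46 to 0.824 and from -0.44 to 0.875. The lowest values, all negative, were without pool 3 and the highest without pool 6. The session block, 1 of the 14, could not change a difference, since each session holds as many db as non-db pools. No paired analysis was possible because the labels of db and non-db pools share no replicate number, and the differences in number order are given as values only.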
